A study of Mus musculus with 12 samples.

Results

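The core of Polycomb repressive complex 1 (PRC1) was followed through 10 of the 55385 genes measured by RNA-seq in mouse spermatogonia. The genes were taken by name: the RING subunits Rnf2 and Ring1, the PCGF subunits Bmi1 (also called Pcgf4), Pcgf1, Pcgf2, Pcgf3 and Pcgf5, the RYBP subunits Rybp and Yaf2, and Kdm2b. The naming rule itself uses no expression value. Each gene matched 1 row of the table, and all 10 had the same position in gencode vM21, on GRCm38.

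The 12 libraries formed 6 groups of 2. WT C57BL/6 mice of 2 to 3 mo gave undifferentiated spermatogonia (Aundiff, sorted as E-Cadherin+ CD9high KIT-) and early differentiating spermatogonia (Adiff, E-Cadherin+ CD9medium KIT+), with no treatment. The other 4 groups were Aundiff of C57BL/6 X FVB/NJ mice labelled PRC1ctrl (Ring1-/-; Rnf2 F/+; Ddx4-Cre) or PRC1cKO (Ring1-/-; Rnf2 F/-; Ddx4-Cre), each untreated at 2 mo or after an inhibitor of ALDH1A2. Ring1 was therefore deleted in controls and knockouts alike, both carried the germ cell Cre driven by Ddx4, and they differed in the second Rnf2 allele. The inhibitor, N, N'-Octamethylenebis(2,2-dichloroacetamide), stops retinoic acid synthesis and so blocks spermatogonial differentiation. It was given under the skin every day from 1 month of age, 50 µl at 40 µg/µl in DMSO for about 30 days, and testes were taken 24 h later. Cells were pooled into each of 2 independent replicates: about 7000 in the 2 mo PRC1 libraries, made by the Smart-Seq2 method, and 100000 to 150000 in the WT and inhibitor-treated libraries, made with a stranded TruSeq kit.

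PRC1 places a single ubiquitin on histone H2A (H2AK119ub), a mark of repressed chromatin. RNF2 (RING1B) and RING1 (RING1A) are its interchangeable E3 ligases, and each complex joins 1 of them to 1 PCGF protein, which decides the other partners. PCGF2 (MEL18) and BMI1 define canonical PRC1, with chromobox (CBX) proteins, which read H3K27me3, and polyhomeotic (PHC) proteins. The variant complexes hold RYBP or YAF2 in place of CBX. PCGF1 assembles with KDM2B, whose zinc finger binds unmethylated CG dinucleotides, and with BCOR. PCGF3 and PCGF5 assemble with AUTS2 and FBRS. In germ cells, PRC1 maintains undifferentiated spermatogonia and holds developmental genes silent.

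Because KDM2B reads CG dinucleotides, promoters of the members were taken from RefSeq (GRCm38.p6), as 300 bases from 250 before to 50 after a start. They were found for 7 of the 10 genes, in 12 windows. Across 32851 such mouse promoters the median was 7 CG dinucleotides and the 90th percentile 31. Of the 12 windows, 5 lay above that percentile, at Ring1 (37), 2 starts of Pcgf5 (34 and 35) and 2 nearly coincident starts of Kdm2b (47 and 49), while Rnf2 had 30, Bmi1 and Pcgf3 23 each and Pcgf2 10. Written 5′ to 3′ on the gene's strand with each CG in capitals are Ring1, the gene deleted in all PRC1 mice, Pcgf2, the poorest in CG among first starts and among the members that rose most in WT Adiff, and an outer and an inner start of Kdm2b, the 1 member of 10 that fell there. The windows lie at chr17:34024631-34024930 (minus strand), chr11:97699599-97699898 (minus), chr5:122988458-122988757 (minus) and chr5:122900318-122900617 (minus).
Ring1: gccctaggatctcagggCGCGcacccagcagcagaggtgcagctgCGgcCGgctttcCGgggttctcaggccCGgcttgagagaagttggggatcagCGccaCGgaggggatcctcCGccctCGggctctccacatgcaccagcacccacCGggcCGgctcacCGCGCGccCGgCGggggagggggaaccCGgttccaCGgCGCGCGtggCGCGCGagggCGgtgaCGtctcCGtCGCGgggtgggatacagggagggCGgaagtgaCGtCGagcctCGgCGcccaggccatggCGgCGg
Pcgf2: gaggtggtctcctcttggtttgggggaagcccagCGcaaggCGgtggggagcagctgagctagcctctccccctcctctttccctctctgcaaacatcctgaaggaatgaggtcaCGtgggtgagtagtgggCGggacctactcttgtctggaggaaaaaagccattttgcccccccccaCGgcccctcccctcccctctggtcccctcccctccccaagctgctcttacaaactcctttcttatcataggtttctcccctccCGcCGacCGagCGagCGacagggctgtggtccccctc
Kdm2b outer start: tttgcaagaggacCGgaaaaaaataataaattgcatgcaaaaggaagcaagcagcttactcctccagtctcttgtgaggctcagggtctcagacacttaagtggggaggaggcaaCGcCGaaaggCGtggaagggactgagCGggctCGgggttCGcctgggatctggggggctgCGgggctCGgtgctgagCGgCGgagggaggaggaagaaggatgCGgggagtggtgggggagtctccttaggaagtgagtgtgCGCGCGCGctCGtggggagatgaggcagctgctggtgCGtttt
Kdm2b inner start: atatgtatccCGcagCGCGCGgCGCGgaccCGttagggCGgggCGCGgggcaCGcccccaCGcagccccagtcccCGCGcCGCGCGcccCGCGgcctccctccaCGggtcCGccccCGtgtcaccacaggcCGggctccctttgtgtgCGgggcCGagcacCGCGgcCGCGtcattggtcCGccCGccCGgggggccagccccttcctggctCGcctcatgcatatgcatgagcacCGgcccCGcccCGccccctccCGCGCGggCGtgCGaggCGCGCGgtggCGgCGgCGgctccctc
The inner Kdm2b start held 47 CG and the outer one 18, more than 98.6% and 70.3% of promoters, and a further outer start held 28. The Pcgf2 window held 1 AGGTCA and 1 CACGTG, which share 2 bases in the stretch aggtcaCGtg. Searched on both strands, AGGTCA was present in 16.3% of all promoters and CACGTG in 7.15%. The Bmi1 window also held 1 CACGTG. These are letter matches, and gene-level TPM does not tell which start was used.

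Values are TPM, transcript abundance per unit of length, scaled to 1 total for all libraries, so levels can be compared between genes within a library, but read depth and counting error are unknown. A TPM of at least 1 was seen for 14796 to 16599 genes in the TruSeq libraries and 12422 to 13986 in the Smart-Seq2 libraries, where mitochondrial genes held 12.5% to 16.7% of TPM against 4.28% to 6.69%. Libraries of a group correlated at r = 0.931 to 0.975 over log2(TPM + 1). The kits coincided with treatment among the PRC1 mice, so each comparison was made on its own 4 libraries. Fold changes are differences of log2(TPM + 1) from limma, given with the standard error (SE), n = 2 per group, and a gene passed at a Benjamini-Hochberg adjusted p under 0.05 over all genes tested. The p-values measure the spread between these libraries alone. In these bulk samples, fewer cells of a type and less RNA per cell cannot be told apart.

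The deleted genes were examined first. Ring1 (ENSMUSG00000024325, chr17:34020792-34024680, minus strand) was at 8.61 and 10.4 TPM in WT Aundiff and at 14.7 and 19.9 in WT Adiff. In the 8 libraries of Ring1-/- mice it lay between 0.03 and 0.25 TPM. All WT libraries were thus far above all PRC1 libraries, under either label and treatment.

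Rnf2 (ENSMUSG00000026484, chr1:151458004-151500955, minus strand) was at 28.3 and 47.6 TPM in PRC1ctrl and 56.7 and 67.5 in PRC1cKO at 2 mo. After the inhibitor it was at 78.1 and 67.2 in PRC1ctrl and 86.2 and 93.1 in PRC1cKO. In both settings every library labelled PRC1cKO was above every PRC1ctrl library, although the label means that Rnf2 was inactivated. TPM is summed over the gene's transcripts and does not separate those with the floxed exons from those without, so it does not check the deletion. The libraries are therefore called by their labels, and directions below are those of the labels.

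**Figure D1:**
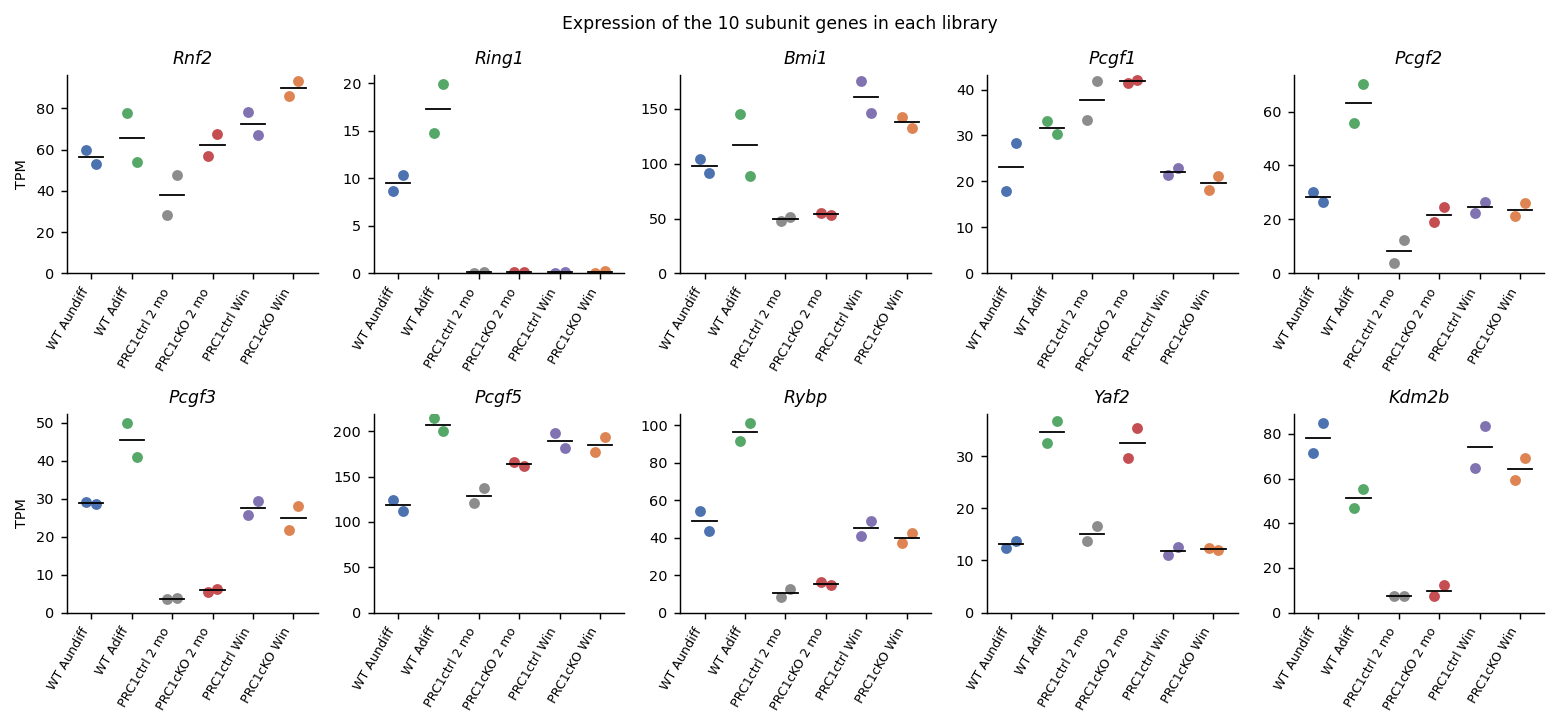
TPM (vertical axis, each from 0) of the 10 subunit genes in 6 groups; points are the 2 libraries of a group and lines their mean, and groups marked Win are inhibitor-treated. Ring1 is near 0 in the 8 PRC1 libraries, Rnf2 is not lower under the label PRC1cKO, and Pcgf3, Rybp and Kdm2b are lowest in the 4 libraries of 2 mo mice.

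In WT Aundiff, Pcgf5 was the highest of the 10 genes (mean 118 TPM), ahead of Bmi1 (97.8), Kdm2b (78.4), Rnf2 (56.3) and Rybp (49.0). Pcgf3 (28.8), Pcgf2 (28.4) and Pcgf1 (23.2) followed, with Yaf2 (13.1) and Ring1 (9.49) last. Neighbours in this order were apart in both libraries, except Rnf2 and Rybp, and Pcgf3, Pcgf2 and Pcgf1, whose ranges overlapped with the next. Pcgf5 had the highest level of the 10 in every one of the 6 groups and, of the 10, the smallest spread of group means, 0.81 on the log2 scale. The largest spread besides that of Ring1 was 3.31, for Pcgf3.

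The first comparison asked which subunits change as Aundiff become Adiff in WT. Of the 10 genes, 6 rose and 1 fell: Yaf2, Pcgf2, Rybp, Pcgf5, Ring1 and Pcgf3 were higher in Adiff, Kdm2b was lower, and Rnf2, Bmi1 and Pcgf1 did not pass. Over all 15470 genes tested, 23.4% rose and 14.7% fell (3615 and 2277 genes, or 2465 and 2816 after median-of-ratios scaling of the libraries). The members' median log2 fold change was 0.71, against 0.15 for all genes. With median-of-ratios scaling the median of all genes was -0.0021, and 4 members rose and 1 fell.

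Yaf2 (ENSMUSG00000022634, chr15:93284278-93336935, minus strand), the paralog of Rybp, changed most. It was at 12.4 and 13.8 TPM in Aundiff and 32.5 and 36.8 in Adiff, a 2.64-fold ratio of means. The log2 fold change was 1.34 (SE 0.17, adjusted p = 0.0028), or 1.19 above the median of all genes. Rybp (ENSMUSG00000072872, chr6:100228565-100287485, minus strand), which binds H2AK119ub and joins the variant complexes, was at 54.2 and 43.7 in Aundiff and 91.6 and 101 in Adiff. Its log2 fold change was 0.97 (SE 0.16, adjusted p = 0.0060). For both genes the groups did not overlap, and both also passed with median-of-ratios scaling.

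Of the canonical PCGF genes, Pcgf2 rose and Bmi1 did not pass. Pcgf2 (ENSMUSG00000018537, chr11:97688823-97700497, minus strand) went from 30.3 and 26.4 TPM in Aundiff to 55.7 and 70.4 in Adiff, a log2 fold change of 1.12 (SE 0.17, adjusted p = 0.0053). Bmi1 (ENSMUSG00000026739, chr2:18677018-18686629, plus strand) was at 104 and 91.5 in Aundiff and 145 and 88.3 in Adiff, so the groups overlapped. Its log2 fold change of 0.21 (95% interval -0.36 to 0.79) rested on 1 library: it was -0.14 without the first Adiff library and 0.57 without the second, where the adjusted p was 0.0161. Pcgf2 lost its call in the fit over all 12 libraries (adjusted p = 0.0666).

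Among the variant PCGF genes, Pcgf5 (ENSMUSG00000024805, chr19:36348309-36460970, plus strand) was at 124 and 112 TPM in Aundiff and 214 and 201 in Adiff. Its log2 fold change was 0.81 (SE 0.12, adjusted p = 0.0051). Pcgf3 (ENSMUSG00000033623, chr5:108461232-108506976, plus strand) was at 29.1 and 28.6 in Aundiff and 50.0 and 41.0 in Adiff, a log2 fold change of 0.63 (SE 0.16, adjusted p = 0.0244). Pcgf5 kept its call without any 1 library, whereas Pcgf3 lost it with median-of-ratios scaling (adjusted p = 0.0637), with no filter on low values (0.0605), without either Aundiff library (0.0969 and 0.10) and without the first Adiff library (0.0769).

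In the pair of PCGF1 and KDM2B, Kdm2b was lower in Adiff. Kdm2b (ENSMUSG00000029475, chr5:122870665-122989823, minus strand) fell from 71.6 and 85.1 TPM in Aundiff to 46.8 and 55.5 in Adiff, with a log2 fold change of -0.60 (SE 0.16, adjusted p = 0.0279) and of -0.75 against the median of all genes. Pcgf1 (ENSMUSG00000069678, chr6:83077869-83080855, plus strand) was at 17.9 and 28.4 in Aundiff and 33.1 and 30.3 in Adiff, a log2 fold change of 0.47 (95% interval -0.10 to 1.04, adjusted p = 0.160). The Kdm2b call was lost without the first Aundiff (adjusted p = 0.0597), the second Aundiff (0.158) or the first Adiff library (0.0560), while the sign held in each, and the call was also lost with no filter on low values (0.0703) and in the fit over all 12 libraries (0.105). Of the exonic bases of Kdm2b, 7.6% lie opposite exons of Rnf34 and A930024E05Rik, and the TPM of Rnf34 was 42.5 and 50.2 in Aundiff and 59.8 and 59.6 in Adiff.

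In the RING pair, Ring1 rose by 0.80 on the log2 scale (SE 0.22, adjusted p = 0.0322), and Rnf2, at 59.8 and 52.8 TPM in Aundiff and 77.5 and 53.8 in Adiff, did not pass (0.20, SE 0.20, adjusted p = 0.468). The Ring1 call was lost with median-of-ratios scaling (adjusted p = 0.0688), with no filter on low values (0.0783), without either Aundiff library (0.150 and 0.0701) and without the second Adiff library (0.0957). The Rnf2 difference was -0.06 without the first Adiff library and 0.03 with median-of-ratios scaling. Ring1 was the lower of the pair in each of the 4 WT libraries.

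Marker sums of the sorted fractions matched their labels: 12 Aundiff markers summed to 605 and 681 TPM in Aundiff and 66.5 and 72.9 in Adiff, and 8 Adiff markers to 565 and 633 against 2104 and 2226. Of the Adiff markers, Ccnd2 was instead lower in Adiff (103 and 115 TPM in Aundiff against 53.6 and 80.4) and Sohlh1 overlapped. Of the Aundiff markers, Lhx1 overlapped. The rest followed the sums. Transcripts of 10 spermatid genes also differed, at 857 and 932 TPM in Aundiff and 583 and 772 in Adiff, and none of the 10 was at 0. Their part in the differences was not tested.

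**Figure D2:**
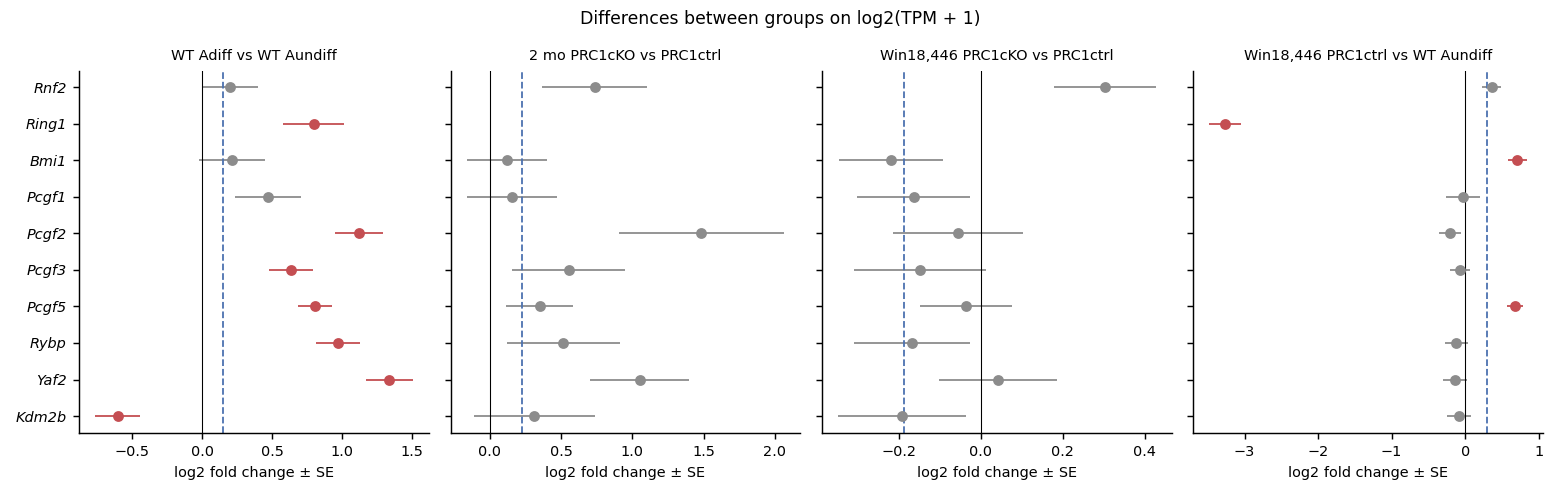
Log2 fold change (horizontal axis, log2(TPM + 1), bars are SE, 2 libraries per group) of each gene in 4 comparisons; red points passed in limma at an adjusted p under 0.05, grey did not, and the dashed line is the median of all genes tested. In WT 7 of 10 passed, and none passed between PRC1cKO and PRC1ctrl, where Ring1 was not tested; the horizontal scales differ.

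The next comparison asked whether the remaining subunits change with the label PRC1cKO at 2 mo. None of the 9 members tested passed in limma, and 2 of them, Yaf2 and Pcgf2, had an unadjusted p under 0.05. Ring1 was under the filter of 1 TPM. Over 13953 genes, 0.222% rose and 1.94% fell. All 9 differences were above 0, with a median of 0.52 against 0.22 for all genes. With median-of-ratios scaling, Bmi1 and Pcgf1 were below 0 (-0.19 and -0.15).

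Yaf2 was at 13.7 and 16.5 TPM in PRC1ctrl and 29.5 and 35.3 in PRC1cKO, a 2.14-fold ratio of means with groups apart. Its log2 fold change was 1.05 (SE 0.35, adjusted p = 0.256, 95% interval 0.18 to 1.92). Leaving out any 1 library gave 0.92 to 1.18.

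Pcgf2 was at 3.85 and 12.4 TPM in PRC1ctrl and 19.1 and 24.5 in PRC1cKO, with a log2 fold change of 1.49 (SE 0.58, adjusted p = 0.339, 95% interval 0.03 to 2.94). The control libraries differed from each other more than the PRC1cKO libraries did, and the value was 0.75 without the first control library and 2.22 without the second. Yaf2 and Pcgf2 passed in the limma fit over all 12 libraries (adjusted p = 0.0077 and 0.0372). That fit pools the spread of both kits: the SE was 0.20 for Yaf2 and 0.41 for Pcgf2, against 0.35 and 0.58 within the 2 mo libraries. Rnf2 had a log2 fold change of 0.74 (SE 0.37, adjusted p = 0.457), or 0.37 without the first control library and 0.43 with median-of-ratios scaling.

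The other 6 genes were nearer the median of all genes. Rybp was at 8.47 and 12.7 TPM in PRC1ctrl and 16.1 and 14.5 in PRC1cKO, Pcgf3 at 3.57 and 3.76 and at 5.46 and 6.25, and Pcgf5 at 121 and 137 and at 166 and 162. In these 3 the groups did not overlap, but none passed (adjusted p = 0.621, 0.595 and 0.578). Bmi1, at 48.0 and 51.3 in PRC1ctrl and 54.9 and 53.1 in PRC1cKO, was also apart without passing in limma (adjusted p = 0.870). How many of all genes were apart in this way was not computed. Pcgf1 was at 33.3 and 42.0 against 41.5 and 42.1, and Kdm2b at 7.51 and 7.61 against 7.54 and 12.2, both with overlapping groups. The widest 95% interval among these 6 was that of Kdm2b, -0.75 to 1.37, and without the second PRC1cKO library the Kdm2b difference was -0.0034.

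Markers of other cells moved with the label. The 10 spermatid genes summed to 1087 and 2265 TPM in PRC1ctrl and 65.8 and 59.5 in PRC1cKO, where 2 of the 10 (Tnp1 and Spaca1) reached 1 TPM. The 8 Adiff markers summed to 303 and 429 against 677 and 873, and the 12 Aundiff markers to 362 and 445 against 158 and 171. Among the Aundiff markers the largest fall was that of Nanos3, at 286 and 349 TPM against 92.4 and 80.6. Tspan8, Id4 and Eomes were also lower in both PRC1cKO libraries, and the rest, among them Gfra1, Etv5 and Zbtb16, overlapped between the labels. Leydig cell genes summed to 1.04 and 1.21 against 21.0 and 48.0. These differences lay in the same libraries as those of Yaf2 and Pcgf2, and their part in the result was not tested.

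The same labels were compared after the inhibitor, a setting in which differentiation is blocked. None of the 9 members tested passed in limma, 1 of them (Rnf2) had an unadjusted p under 0.05, and log2 fold changes ran from -0.22 to 0.30. Over 16521 genes, 5.87% rose and 26.7% fell (970 and 4415, or 2538 and 2982 with median-of-ratios scaling). The members' median was -0.15 and that of all genes -0.19.

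Rnf2 was the member farthest from the median of all genes, 0.49 above it. Its log2 fold change was 0.30 (SE 0.12, adjusted p = 0.107), 0.20 to 0.41 without each library in turn. With median-of-ratios scaling, which moves the median of all genes to 0.03, it was 0.54 with an adjusted p of 0.0192, and it was the 1 member that passed.

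The remaining 8 genes did not pass. Yaf2 was at 11.0 and 12.6 TPM in PRC1ctrl and 12.4 and 11.96 in PRC1cKO (log2 fold change 0.04, 95% interval -0.30 to 0.39). Pcgf2 was at 22.3 and 26.6 against 21.1 and 25.9 (-0.06, interval -0.44 to 0.32), Pcgf3 at 25.6 and 29.4 against 21.8 and 27.9, and Pcgf5 at 198 and 181 against 177 and 194. Rybp was at 41.0 and 48.7 against 36.9 and 42.7, and Kdm2b at 64.8 and 83.4 against 59.6 and 69.3. All 6 overlapped between the labels.

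Bmi1, at 175 and 147 TPM in PRC1ctrl and 143 and 132 in PRC1cKO, and Pcgf1, at 21.5 and 22.8 against 18.2 and 21.2, were lower in both PRC1cKO libraries without passing (adjusted p = 0.229 and 0.405). Both, like Pcgf2, Pcgf3, Pcgf5, Rybp and Kdm2b, turned to slightly above 0 with median-of-ratios scaling (0.02 to 0.21).

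Here too spermatid genes moved with the label, from 153 and 138 TPM in PRC1ctrl to 25.97 and 23.8 in PRC1cKO, where Acrv1, Prm2, Ms4a5 and Gapdhs were listed at 0. The Adiff markers summed to 625 and 648 against 720 and 808, and the Aundiff markers to 505 and 594 against 384 and 436. Not every marker followed its sum: Stra8 was at 10.7 and 12.4 TPM against 7.91 and 7.90, and Gfra1 at 14.7 and 14.7 against 15.7 and 16.1. Leydig cell genes summed to 397 and 82.1 in PRC1ctrl and 73.2 and 20.6 in PRC1cKO. Their part in the values was not tested.

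Whether the difference between labels itself differed with treatment was tested by an interaction term over the 8 PRC1 libraries. None of 9 members passed in limma, with adjusted p from 0.115 to 0.558 and 1 member (Yaf2) at an unadjusted p under 0.05. Over 18354 genes, 7.81% passed in either direction. For Yaf2 the difference after the inhibitor was 1.01 lower than at 2 mo on the log2 scale (interaction -1.01, SE 0.32, adjusted p = 0.115), and for Pcgf2 the interaction was -1.54 (SE 0.66, adjusted p = 0.210). Pcgf2 passed without the second PRC1ctrl library of 2 mo (-2.28, adjusted p = 0.037). With median-of-ratios scaling the terms were -0.36 for Yaf2 (adjusted p = 0.569) and -0.92 for Pcgf2 (adjusted p = 0.336). All 9 terms were below 0, as was the median of all genes (-0.41), and 5 of them (Rnf2, Bmi1, Pcgf1, Pcgf5 and Kdm2b) were above 0 with median-of-ratios scaling. Treatment and kit cannot be told apart in this term.

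Libraries of PRC1 mice with and without the inhibitor differed widely in the members' levels, across kits. Kdm2b ranged from 7.51 to 12.2 TPM in the 4 libraries of 2 mo and from 59.6 to 83.4 after the inhibitor. Pcgf3 ranged from 3.57 to 6.25 against 21.8 to 29.4, Rybp from 8.47 to 16.1 against 36.9 to 48.7 and Bmi1 from 48.0 to 54.9 against 132 to 175. Pcgf5 was also higher after the inhibitor (121 to 166 against 177 to 198). Pcgf1 was lower, at 18.2 to 22.8 against 33.3 to 42.1, and so was Yaf2, at 11.0 to 12.6 against 13.7 to 35.3. In these 7 genes the ranges did not overlap. The share of all genes with ranges apart was not computed, so the count is not read as particular to the members. The longest annotated transcripts measure 7708 bases for Pcgf3, 6443 for Pcgf5, 5180 for Kdm2b, 4503 for Rybp and 3594 for Bmi1, which were higher. Those of Pcgf1 and Yaf2, which were lower, measure 918 and 1870. Rnf2, Ring1 and Pcgf2, whose ranges overlapped, have 3201, 2552 and 2485. On the log2 scale the differences in PRC1ctrl and PRC1cKO were 2.61 and 1.91 for Pcgf3, 0.56 and 0.17 for Pcgf5, and 3.12 and 2.62 for Kdm2b. A relation to length was not tested. Kit, cell number and treatment changed together here and cannot be told apart, and no test was made.

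Inhibitor-treated PRC1ctrl and WT Aundiff were made with the same kit, and were compared to place the treated controls against untreated WT. The groups differ at once in Ring1 genotype, a floxed Rnf2 allele, Ddx4-Cre, strain and treatment, which cannot be told apart. Bmi1 and Pcgf5 were higher in PRC1ctrl and Ring1 lower, and the other 7 genes did not pass. Over 16602 genes, 33.9% rose and 8.6% fell (5629 and 1428, or 3273 and 3258 with median-of-ratios scaling). The WT Aundiff libraries are also those of the comparison with Adiff. The median was -0.08 for the members and 0.30 for all genes.

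Ring1, at 8.61 and 10.4 TPM in WT and 0.04 and 0.14 in PRC1ctrl, had a log2 fold change of -3.26 (SE 0.22, adjusted p = 0.0012), a size set by the pseudocount of 1, since it was -5.70 with a pseudocount of 0.1. Bmi1 was at 104 and 91.5 TPM in WT and 175 and 147 in PRC1ctrl, a log2 fold change of 0.71 (SE 0.13, adjusted p = 0.0098). Pcgf5 was at 124 and 112 in WT and 198 and 181 in PRC1ctrl, with 0.68 (SE 0.11, adjusted p = 0.0067). These 2 rises were 0.41 and 0.38 above the median of all genes, and with median-of-ratios scaling, where that median was -0.0009, neither passed (adjusted p = 0.105 and 0.083).

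Rnf2, the paralog of the deleted Ring1, was above WT in both PRC1ctrl libraries without passing, with a log2 fold change of 0.36 (SE 0.13, adjusted p = 0.0739). It stood 0.06 above the median of all genes. Kdm2b, Pcgf1, Pcgf2, Pcgf3, Rybp and Yaf2 overlapped between the groups, with log2 fold changes of -0.21 to -0.03. Pcgf2 passed as lower with median-of-ratios scaling (-0.54, adjusted p = 0.0392), where the Rnf2 difference was 0.02. Markers of other cells moved between these groups too. The spermatid genes summed to 857 and 932 TPM in WT and 153 and 138 in PRC1ctrl, Leydig cell genes to 21.0 and 41.5 against 397 and 82.1, and 8 Sertoli cell genes to 59.8 and 65.6 against 215 and 134. Their part in the result was not tested.

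Shares within a family, computed inside each library, do not move with library scaling. For these an exact permutation test over 2 against 2 libraries cannot give a p below 0.33, so they are given as values. Of the summed TPM of Rnf2 and Ring1, Rnf2 held 87.4% and 83.6% in WT Aundiff and 84.0% and 73.0% in WT Adiff. In the 8 PRC1 libraries it held 99.7% to 99.97%.

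The PCGF family was summed with Pcgf6, the subunit of the complex of MGA and L3MBTL2 that represses germline genes. In WT Aundiff, Pcgf5 held 36.9% and 35.5% of it and Bmi1 30.9% and 28.9%. In Adiff, Pcgf5 held 42.4% and 45.6%, Pcgf2 11.0% and 15.98% against 9.001% and 8.34% in Aundiff, and Bmi1 28.7% and 20.0%. Pcgf6 went the other way, from 9.32% and 9.18% to 1.45% and 2.22%. For these 4 the groups did not overlap (exact permutation p = 0.33, the smallest possible).

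At 2 mo, Pcgf6 held 35.3% and 30.6% of PCGF TPM in PRC1ctrl and 21.8% and 17.7% in PRC1cKO. Pcgf5 held 37.3% and 38.6% against 45.2% and 46.3%, and Pcgf2 1.19% and 3.50% against 5.20% and 6.99%. After the inhibitor, Pcgf6 held 9.51% and 10.7% in PRC1ctrl and 8.02% and 7.92% in PRC1cKO, and Pcgf5 40.5% and 39.8% against 42.7% and 44.5%. In the WT, 2 mo and inhibitor comparisons alike, the first-named group (Adiff or PRC1cKO) had the higher share of Pcgf5 and the lower share of Pcgf6 in every library (exact permutation p = 0.33 each). Shares of a family are not independent, since a lower share of any gene raises those of the others. After the inhibitor the TPM of Pcgf5 itself overlapped between the labels (log2 fold change -0.04). The TPM of Pcgf6 itself fell in WT Adiff, from 31.4 and 29.0 to 7.33 and 9.78 (log2 fold change -1.72, SE 0.20, adjusted p = 0.0023), and in inhibitor-treated PRC1cKO, from 46.5 and 48.7 to 33.2 and 34.5 (-0.48, SE 0.11, adjusted p = 0.0208). At 2 mo it was 114 and 109 against 79.9 and 62.1 and did not pass (-0.66, adjusted p = 0.369).

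Rybp held 81.3% and 76.0% of the TPM of the Rybp and Yaf2 pair in WT Aundiff and 73.8% and 73.4% in Adiff. At 2 mo it held 38.2% and 43.4% in PRC1ctrl and 35.2% and 29.1% in PRC1cKO, so that Yaf2 was the larger of the pair in these 4 libraries and the smaller in the other 8. After the inhibitor it held 78.8% and 79.5% in PRC1ctrl and 74.9% and 78.1% in PRC1cKO. The share of Rybp was lower in Adiff or PRC1cKO, with groups apart, in all 3 comparisons (exact permutation p = 0.33 each).

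**Figure D3:**
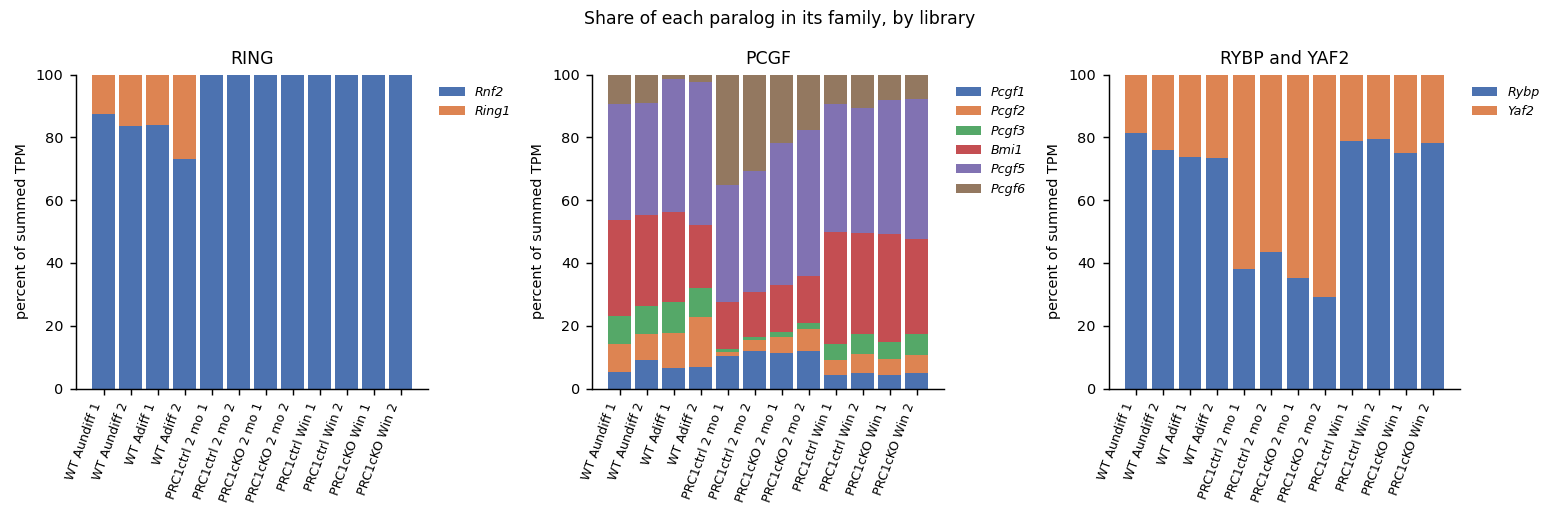
Percent of summed TPM held by each paralog (vertical axis) in the RING, PCGF and RYBP families, 1 bar per library. Ring1 holds 0.0348% to 0.268% of RING TPM in the 8 PRC1 libraries, Pcgf6 takes 17.7% to 35.3% of PCGF TPM in the 2 mo libraries and 1.45% to 10.7% elsewhere, and Yaf2 exceeds Rybp in the 4 libraries of 2 mo and in none of the other 8; groups marked Win are inhibitor-treated.

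Genes of partner complexes were described from lists taken from general knowledge of each complex. In WT Adiff, of the 10 chromobox and polyhomeotic genes of canonical PRC1, 3 rose, 2 fell and 5 did not pass, with a median log2 fold change of 0.26 (2 rose and 2 fell with median-of-ratios scaling), beside 23.4% of all genes that rose and 14.7% that fell. Phc3 rose by 1.06 (SE 0.23, adjusted p = 0.0153), and Cbx7 fell by 1.02 (SE 0.24, adjusted p = 0.0183). Of the 4 partners of PCGF1, the corepressor Bcor fell by 1.88 (SE 0.20, adjusted p = 0.0019), from 20.4 and 25.7 TPM to 5.31 and 5.66, and 2 rose, among them the deubiquitinase Usp7, by 1.08 (SE 0.14, adjusted p = 0.0029). Partners of PCGF1 thus went both ways in Adiff: Bcor and Kdm2b were lower, while 2 of the list were higher. The Kdm2b call did not hold without some single libraries, and Pcgf1 did not pass.

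Of 6 partners of PCGF3 and PCGF5, 2 rose and 1 fell. Of 10 genes of the PCGF6 complex, 5 rose and 3 fell, and 1 rose and 3 fell with median-of-ratios scaling. Of 12 PRC2 genes, 7 rose and 3 fell (4 and 3 with that scaling). They include Epop, which rose by 1.69 (SE 0.26, adjusted p = 0.0054), Rbbp4, which rose by 1.09 (SE 0.12, adjusted p = 0.0021), and Phf19, which fell by 1.02 (SE 0.29, adjusted p = 0.0358). Of 6 genes that remove H2AK119ub or assist in it, 1 rose, and 0 in limma with that scaling. Kdm2a, the paralog of Kdm2b, did not pass.

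At 2 mo none of the 41 genes tested in these lists passed in limma, 1 of them at an unadjusted p under 0.05. After the inhibitor, of the 6 genes of H2AK119ub removal, 5 were lower in PRC1cKO, beside 26.7% of all genes. Their list had a median log2 fold change of -0.89 against -0.19 for all genes, and all 5 also passed with median-of-ratios scaling. Asxl3 fell by 1.84 (SE 0.21, adjusted p = 0.0027), Mysm1, a deubiquitinase of H2A, by 1.20 (SE 0.18, adjusted p = 0.0048) and Asxl2, a cofactor of BAP1, by 1.12 (SE 0.18, adjusted p = 0.0059). In treated PRC1cKO, Asxl3 was at 1.07 and 1.77 TPM and Asxl2 at 5.56 and 7.68, near WT Aundiff (1.02 and 1.45, and 5.55 and 6.46). Mysm1 was instead below WT Aundiff, at 6.41 and 7.86 against 10.15 and 9.88. Differences between treated PRC1cKO and WT were not tested. Kdm2a fell from 88.9 and 100 TPM to 36.3 and 49.9 (-1.13, SE 0.17, adjusted p = 0.0049), where Kdm2b did not pass.

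In the same comparison Phc3 fell by 1.13 (SE 0.18, adjusted p = 0.0055), Cbx6 by 1.05 (SE 0.15, adjusted p = 0.0044) and Mga by 1.03 (SE 0.16, adjusted p = 0.0049). Lower calls numbered 2 of 10 canonical genes, 2 of 4 PCGF1 partners, 1 of 6 PCGF3 and PCGF5 partners, 2 of 10 PCGF6 genes and 6 of 12 PRC2 genes, beside 26.7% of all genes. Higher calls numbered 1, in PRC2. With median-of-ratios scaling the lower calls were 2, 1, 0, 1 and 2 in the same order, and 1 gene each of the PCGF3 and PCGF5, PCGF6 and PRC2 lists was higher. The interaction passed for 3 of the 6 H2AK119ub removal genes and for no gene of the other lists, beside 7.81% of all genes. Among them, Asxl3 was under the filter at 2 mo, at 0.31 and 0.47 TPM in PRC1ctrl and 0.20 and 0.45 in PRC1cKO. Its interaction of -1.77 therefore largely repeats its difference of -1.84 after the inhibitor. Treatment and kit cannot be told apart in the interaction, and its values under median-of-ratios scaling were not taken for these lists.

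Against WT Aundiff, where 33.9% of all genes were higher and 8.6% lower, inhibitor-treated PRC1ctrl was higher for 5 of 6 H2AK119ub removal genes (Asxl3 1.95, SE 0.22, adjusted p = 0.0031), for 3 of 4 PCGF1 partners (Bcor 1.47, SE 0.18, adjusted p = 0.0034), for 4 of 6 PCGF3 and PCGF5 partners (Auts2 1.26, SE 0.34, adjusted p = 0.0344, not passing with median-of-ratios scaling) and for Kdm2a. It was higher for 3 of 10 canonical genes, with Phc3 at 1.75 (SE 0.19, adjusted p = 0.0027) and Cbx6 at 1.34 (SE 0.18, adjusted p = 0.0043). It was higher for 4 of 10 PCGF6 genes, with Mga at 1.21 (SE 0.13, adjusted p = 0.0026), and for 5 of 12 PRC2 genes, with Aebp2 at 1.02 (SE 0.14, adjusted p = 0.0041), while Phf19 was lower (-1.20, SE 0.24, adjusted p = 0.0124). Asxl2 was also higher, by 1.23 (SE 0.17, adjusted p = 0.0043). With median-of-ratios scaling fewer passed as higher: 2 of the 6 H2AK119ub removal genes, 2 PCGF1 partners, 1 partner of PCGF3 and PCGF5, 2 canonical genes, 1 PCGF6 gene and 3 PRC2 genes, while 3 canonical genes, 1 partner of PCGF3 and PCGF5 and 2 PCGF6 genes passed as lower. This comparison and that of the labels after the inhibitor share the PRC1ctrl libraries, so opposite signs in them are not independent.

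**Figure D4:**
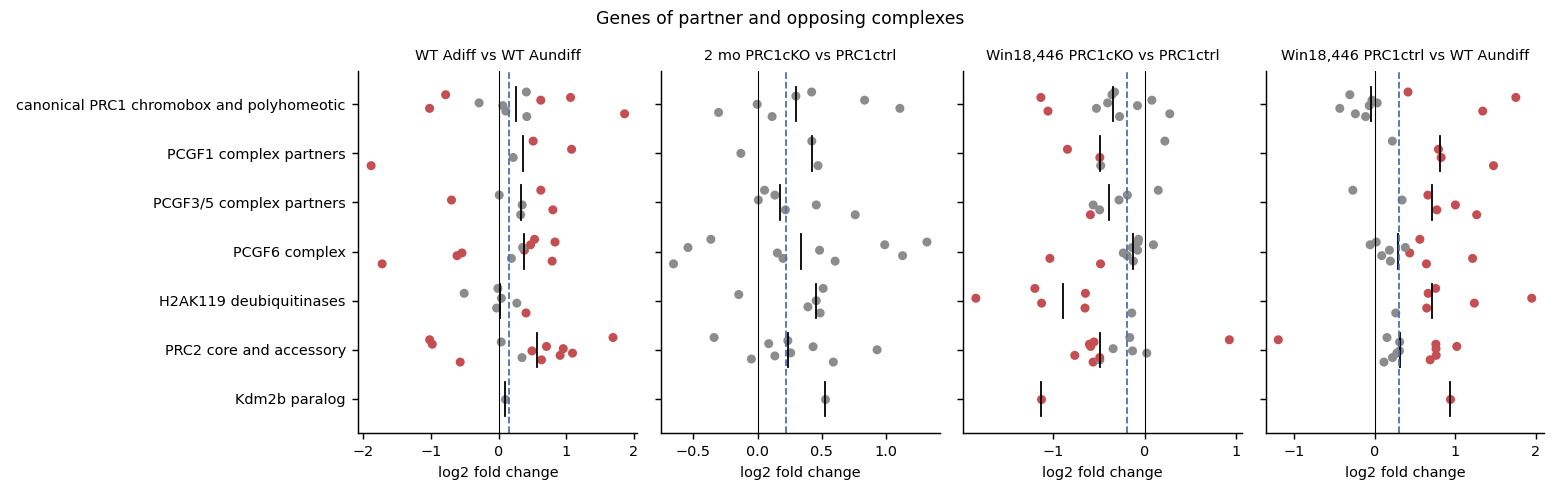
Log2 fold change (horizontal axis, log2(TPM + 1)) of every tested gene in 7 lists of partner and opposing complexes in 4 comparisons; red points passed in limma at an adjusted p under 0.05, black bars are list medians and dashed lines the median of all genes. No gene passed at 2 mo, and 5 of 6 genes that remove H2AK119ub or assist in it were lower in inhibitor-treated PRC1cKO, beside 26.7% of all genes.

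The genes most like each member over the 12 libraries were found by Pearson's r of log2(TPM + 1) among 9087 genes at 1 TPM or more in all libraries. They were Fyttd1 for Rnf2 (r = 0.926), Aqp11 for Ring1 (0.964), Chpt1 for Bmi1 (0.980), Tmem237 for Pcgf1 (0.963), Tinf2 for Pcgf2 (0.980), Fbxo9 for Pcgf3 (0.996), Plekhh1 for Rybp (0.986), Rad51ap1 for Yaf2 (0.975) and Gm42418 for Kdm2b (0.996). The libraries share kits and treatments, and these values are descriptive.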

How the data were processed

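The deposited TPM values were used as given. The authors trimmed reads with Trim Galore 0.6.6 and estimated TPM with RSEM 1.3.3 on GRCm38; gencode vM24 is named for their read counts, and the annotation behind TPM is not given in the sources used here. Read counts were not used here. TPM keeps no depth, so precision comes from 2 libraries per group alone. Columns were assigned by their labels, and replicates are independent pools of cells.

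Log2(TPM + 1) was tested, two-sided, with limma 3.58.1 (R 4.3.3) with its trend and robust options. A gene entered where 2 or more of the compared libraries (4, or 8 for the interaction) reached 1 TPM, and Benjamini-Hochberg adjustment ran over every gene entered, with 0.05 as the threshold. The procedure was tested on simulated data: more calls were false than the threshold allows in every comparison simulated, and at 2 mo few planted changes were recovered, so that a gene not passing there says little about its change. Family shares were compared by exact permutation. Promoter windows came from RefSeq by symbol. Figures were drawn with matplotlib 3.10.9.

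The 10 members are all named. From the other lists, genes that passed with an absolute log2 fold change above 1 are named, largest first and at most 3 for each list, comparison and direction. 1 gene that met this rule is not reported here. Pcgf6 at 2 mo and after the inhibitor, and Kdm2a and A930024E05Rik and Rnf34 where they did not meet this rule, were named after their values were seen. The gene most like a member is named where the member's group means span more than 1 on the log2 scale. Members and lists were chosen with earlier results of these data known.

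Alternatives were a pseudocount of 0.1, no low-value filter, a filter on mean TPM (5 or more), scaling by median-of-ratios, a block for the replicate number, 1 fit over all 12 libraries, and leaving out each library in turn. Leaving out libraries for the shares, and the alternatives for each member's interaction, were added after the data were seen.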

Additional observations from a re-analysis of the deposited data

How the results depend on the processing

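With low values left in, 2268 genes were higher in WT Adiff, 0 were higher and 0 lower in PRC1cKO at 2 mo (limma, 2683 at an unadjusted p under 0.05), 388 were higher and 2675 lower in PRC1cKO after the inhibitor, 3450 were higher and 707 lower in inhibitor-treated PRC1ctrl than in WT, and 931 passed the interaction. With a mean TPM of at least 5, the counts were 6 higher and 90 lower at 2 mo, 626 and 2922 after the inhibitor, and 176 for the interaction. A pseudocount of 0.1 gave 406 lower at 2 mo and 470 for the interaction. Median-of-ratios scaling gave 84 higher and 833 lower at 2 mo, 2538 higher after the inhibitor, and 3273 higher and 3258 lower against WT. The fit over all 12 libraries gave 983 and 1173 at 2 mo, 276 and 2066 after the inhibitor, and 3675 and 627 against WT. Leaving out each library in turn gave 1684 to 3333 higher and 976 to 2335 lower in WT, 1 to 124 and 44 to 149 at 2 mo, 217 to 938 and 1873 to 3400 after the inhibitor, 2853 to 4978 and 782 to 1082 against WT, and 21 to 1443 for the interaction; the lone library is then assumed to vary like the others.

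The replicate block gave 1562 higher and 1231 lower at 2 mo, and there Rnf2, Pcgf2 and Yaf2 passed (adjusted p = 0.0443, 0.0036 and 0.0097), as did Rnf2 between inhibitor-treated PRC1ctrl and WT (0.0209); it changed no other member's call. Same-numbered libraries deviated together with correlations of 0.16, 0.38, 0.12 and 0.07 in the 4 comparisons, over 2 pairs each, which does not establish that the numbers pair them.

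Among members, median-of-ratios scaling turned the sign at 2 mo for Bmi1 (-0.19) and Pcgf1 (-0.15), after the inhibitor for Bmi1 (0.024), Pcgf1 (0.069), Pcgf2 (0.18), Pcgf3 (0.088), Pcgf5 (0.21), Rybp (0.072) and Kdm2b (0.0495), and in the interaction for Rnf2 (0.26), Bmi1 (0.37), Pcgf1 (0.37), Pcgf5 (0.33) and Kdm2b (0.17). Leaving out 1 library turned the sign for Rnf2 (-0.0605 to 0.46) and Bmi1 (-0.14 to 0.57) in WT, for Pcgf1 (-0.0073 to 0.32) and Kdm2b (-0.0034 to 0.63) at 2 mo, for Pcgf2 (-0.20 to 0.0855), Pcgf3 (-0.32 to 0.025), Pcgf5 (-0.10 to 0.03) and Yaf2 (-0.0449 to 0.13) after the inhibitor, and for Pcgf1 (-0.35 to 0.29), Pcgf3 (-0.16 to 0.0247), Rybp (-0.27 to 0.0323) and Kdm2b (-0.26 to 0.0942) against WT. None of these passed in the fit as reported. Of 32 share differences, 8 changed sign without some library, 5 of them between labels after the inhibitor. The causes were not tested.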
